A study of Mus musculus with 12 samples.

Results

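The comparison described here set ribosome footprints against total RNA in *Mael*+/- testes. Its members were all 6 heterozygous libraries among the 12 of the series, 3 of RNA and 3 of footprints, each with 20620 gene rows. The testes came from C57BL/6 mice at postnatal day 16, when the first wave of germ cells is in meiosis. *Mael*+/- mice carry a targeted and an intact allele of *Mael*, which encodes Maelstrom, a protein needed to make piRNAs, and they were the controls for *Mael*-/- mice, which have no intact allele. Whole testes were lysed, and each extract was divided between an RNA library and a library of the fragments that ribosomes shielded from micrococcal nuclease. Cycloheximide, which holds ribosomes on mRNA, is named in the paper for its sucrose gradients but not in its methods for ribosome profiling. The libraries therefore mix germ cells with Sertoli, Leydig and other somatic cells, and fewer cells of a type and less RNA per cell cannot be told apart. Nothing in the labels says whether replicates were separate animals, so p-values measure the spread between these extracts.

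The load of an mRNA with ribosomes depends on how often ribosomes initiate on its coding sequence and how long each takes to read it. Each ribosome leaves a footprint, so footprints within the coding sequence, relative to the RNA of the same gene, follow the density of ribosomes on an mRNA. Initiation can be lowered by open reading frames in the leader, the part of the mRNA before the main start codon, as in the stress response mRNA *Atf4*. Elongation is slow at some sequences, among them runs of codons for proline, which is a poor partner in peptide bond formation. Male germ cells are also known for mRNAs that are stored for days before they are translated.

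Load is given here as the footprints per base of coding sequence over the RNA per base of exon, on the log2 scale, relative to the median gene. A load of 1 is thus a 2-fold higher ratio than that of the median gene, and not a number of ribosomes. The total of gene counts was 23484975 to 27123131 in RNA and 7609932 to 10207529 in footprints. *Clu*, a secreted chaperone of Sertoli cells, led every library, with 4305, 4484 and 4973 CPM (counts scaled to equal library totals after TMM) in RNA and 7254, 7586 and 9328 CPM in footprints, and its load of 0.28 (SE 0.08) was near the median. Markers of pachytene spermatocytes, spermatogonia, Sertoli and Leydig cells were present in every RNA library, and 1 of 7 erythroid markers passed the filter on low counts. Extract 1 stood apart. The summed level of 14 pachytene markers was 1219 CPM in its RNA against 431 and 455 CPM in the other extracts, and 1473 CPM against 450 and 527 CPM in footprints. Its part in the loads was not tested, and leaving extract 1 out gave 1166 genes of higher load and 543 of lower load.

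With all extracts, 1166 of 14198 genes tested had a load more than 2-fold above the median gene (edgeR's test against a 2-fold difference with Benjamini-Hochberg adjustment; 8.21% of genes) and 593 had a load more than 2-fold below it (4.18%). At any difference from the median gene, 9899 genes (69.7%) passed. Footprint levels otherwise followed RNA levels. Pearson's r between log2 RNA and log2 footprint CPM per kb was 0.896 (Spearman's rho 0.908) across the 14198 genes, which are not independent replicates and whose libraries came from the same extracts. The lower and upper quartiles of load were -0.44 and 0.52. Loads repeated closely between extracts. The median SD of a gene's load over the 3 extracts was 0.154, and across 8217 genes with at least 10 CPM in both assays the loads of any pair of extracts correlated with r of 0.946 to 0.968.

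The lowest loads belonged largely to genes whose coding sequence is repeated elsewhere in the genome. For each gene, the share of 30-base windows of its coding sequence found at no other place in GRCm38 was counted, since a footprint of about that length is all the aligner has to place. The median load was -2.84 in the 259 genes with at most 10% unique windows, -0.77 in the 331 genes with 25 to 50% and 0.04 in the 10167 genes with all windows unique. Of the 593 genes called lower, 462 had less than 90% unique windows, against 122 of the 1166 called higher. When lengths were counted over unique windows alone, the median load of the first of these bins was 0.76. How reads that align to several places were treated is not stated in the sources used here, and its part in these loads was not tested.

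**Figure D1:**
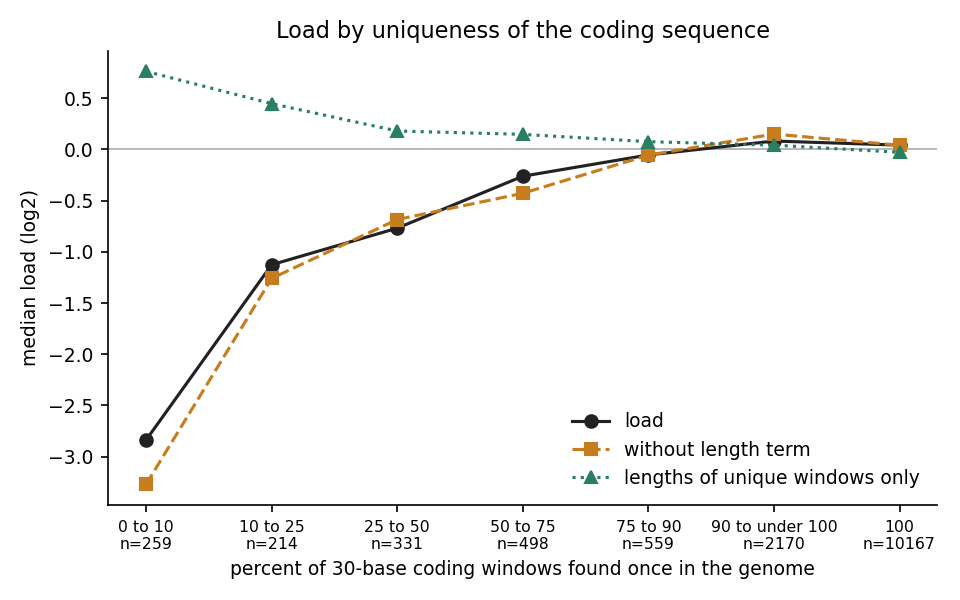
Median load (log2, relative to the median gene) of genes in 7 bins of the percent of 30-base coding windows found at no other place in the genome, with the number of genes under each bin. Both load and its form without the length term climb from about -3 in the least unique bin to about 0 above 75%, while the form with lengths of unique windows falls from 0.76 to about 0.

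The ribosomal protein genes, whose mRNAs carry a terminal oligopyrimidine tract and have many processed pseudogenes, had low loads together with few unique windows. The part of the tract and of the repeated sequence in their loads was not tested. Of 79 tested, 68 were called lower and 2 higher, with a median load of -4.49, and their median share of unique windows was 1.08%. *Rps29* had 7555, 10703 and 9710 RNA counts and 0 footprints in each of the 3 libraries, which makes its load at least 2641-fold lower (against 3 counts summed over the group), and none of its coding windows was unique. *Rpl12* (load -10.01, SE 0.30) and *Rpsa* (-9.82, SE 0.42) had no unique coding window either. *Rps3*, with 75.9% unique windows, had 603 CPM in RNA and 423 CPM in footprints and a load of -0.10 (SE 0.07). The only ribosomal protein gene above 90% had a load of -1.03 and was not called. *Rpl26* went the other way, with 0, 0 and 1 RNA counts against 557, 530 and 661 footprints, and of its 75-base exon windows 24.1% were unique.

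Some single members of other abundant families also had low loads together with few unique windows. *Gapdh*, a glycolytic enzyme, had 3092, 3766 and 3689 RNA counts but 86, 52 and 96 footprints, and 3.73% of its coding windows were unique. *Eef1a1*, the elongation factor that brings tRNA to the ribosome (load -2.93, SE 0.08), had 10.3% unique windows. *Hspa8*, a chaperone (-3.02, SE 0.08), had 3.15%. *Odc1*, the first enzyme of polyamine synthesis (-3.02, SE 0.09), had 14.6%, and its inhibitor *Oaz1*, with 8, 9 and 11 RNA counts against 423, 455 and 542 footprints, had 4.09%. *Actb* had 56.4% unique windows and a load of -0.06 (SE 0.08), the sign of which turned without lengths.

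A few genes had counts in only 1 assay although their sequence was unique. *Lrch4* (chr5:137629123-137641099) had 0 RNA counts in every library and 544, 476 and 515 footprints, a load at least 1136-fold higher than that of the median gene. *Jmjd7* had 0 RNA counts and 134, 150 and 175 footprints, at least 344-fold higher. *Tgoln1*, a protein of the trans-Golgi network (chr6:72608420-72617000), had 2615, 2058 and 2625 RNA counts and 0 footprints, at least 332-fold lower. *Ankrd60* had 20, 3 and 2 RNA counts against 5921, 7293 and 7738 footprints, with most of its RNA in extract 1. *Rsc1a1*, with 0, 1 and 0 RNA counts and 600, 543 and 540 footprints, shares 96.1% of its exon bases with *Ddi2*. *Insl3*, a hormone of Leydig cells, shares 69.2% with *Jak3* and had 25, 54 and 54 RNA counts against 446, 622 and 1190 footprints. RNA was counted over whole mRNAs and footprints over coding sequence, and the part of these counting rules in such genes was not tested. The annotation release the counts rest on is not given in the sources used here, so the features counted for *Lrch4*, *Ankrd60*, *Tgoln1* and the like may differ from the RefSeq exons whose lengths enter these folds.

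What follows keeps mostly to single-copy genes, meaning those with at least 90% unique coding windows and at most 10% of exon bases shared with another gene. They numbered 11808 of the 14198. Of these, 982 were called higher (8.32%) and 126 lower (1.07%), and their loads had a standard deviation of 0.81. Among them r between footprint and RNA levels was 0.943.

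The length of the 3' untranslated region separated the measures of load. Annotated exons outside the coding sequence enter RNA counts but not footprint counts, so load was also computed from counts alone, without any length. That measure called 685 of 14198 genes higher (4.82%) and 965 lower (6.8%), and 5.03% and 3.45% of the 12340 genes with at least 90% unique windows. The load with lengths rose with the length of the 3' untranslated region, with a Spearman's rho of 0.40 across the 11808 genes. Without lengths it fell, with a rho of -0.28. Exon length includes the 3' untranslated region, and dividing RNA by it raises the load of genes where this region is long. A gap in this direction between the measures thus follows from how load is defined. In the decile of genes with the shortest 3' untranslated regions the median was -0.29 with lengths and 0.33 without, and in the decile with the longest, of 3445 bases or more, it was 0.68 and -0.27. Which ends are used in testis was not tested. Of the 982 genes called higher 375 were also called higher without lengths (3.18% of single-copy genes), and of the 126 called lower 50 were also called lower (0.423%). These 375 and 50 genes, chosen after the values were seen, passed under both treatments of length.

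Several of the most heavily loaded mRNAs by both measures are described here. They were named for their loads, and no function was counted over all genes. *Kmt2d*, a methyltransferase of histone H3 lysine 4, had 78.9, 74.3 and 83.1 CPM in RNA against 1641, 2310 and 1741 CPM in footprints. Its footprints per RNA were thus far above those of the median gene in all 3 extracts, with loads of 3.66, 4.24 and 3.68, a fitted load of 3.86 (SE 0.09, edgeR adjusted p 1.01e-24) or 14.5-fold, and 23.9-fold without lengths. *Setd1b*, another methyltransferase of this kind, had 6.44, 4.34 and 5.75 CPM in RNA and 135.9, 165.5 and 145.2 CPM in footprints. Its load of 4.38 (SE 0.11, 20.8-fold) was the highest of the single-copy genes with at least 1 CPM of RNA and a mean of 10 CPM over both assays. *Kdm6b*, a demethylase of histone H3 lysine 27, had 24.7, 24.01 and 26.8 CPM in RNA and 405, 593 and 461 CPM in footprints, a load of 3.77 (SE 0.09). The groups of RNA and footprint values of these 3 genes did not overlap, and the share of all genes for which this held is not given here.

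*Bcl9l*, a coactivator of beta-catenin, had a load of 3.57 (SE 0.08), and its relative *Bcl9* had 2.67 (SE 0.09). *Tcf7l2*, the partner of beta-catenin on DNA, had 3.46 (SE 0.12). *Atn1*, a corepressor, had 3.36 (SE 0.12), with 2.83 in extract 1 and 3.96 in extract 2. *Gatad2b*, a subunit of the NuRD complex, had 4.15 (SE 0.08), or 17.7-fold, but 7.94-fold without lengths. *Esx1*, an X-linked homeobox gene of testis and placenta, had 8.49, 6.43 and 6.23 CPM in RNA against 158, 157 and 151 CPM in footprints, a load of 3.995 (SE 0.09).

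*Atp1b2*, a subunit of the sodium pump, had 46.2, 41.2 and 44.1 CPM in RNA and 333, 358 and 407 CPM in footprints, a load of 3.88 (SE 0.08). *Sod3*, a secreted superoxide dismutase, had 3.51 (SE 0.09), and *Clec3b*, a secreted lectin, had 3.42 (SE 0.11). *Hnrnpd* (4.18, SE 0.08) and *Atf7* (3.75, SE 0.08) were among the highest with lengths. Without lengths they were 5.50-fold and 5.08-fold above the median gene, and with the shortest annotated coding transcript *Atf7* had a load of 1.93.

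**Figure D2:**
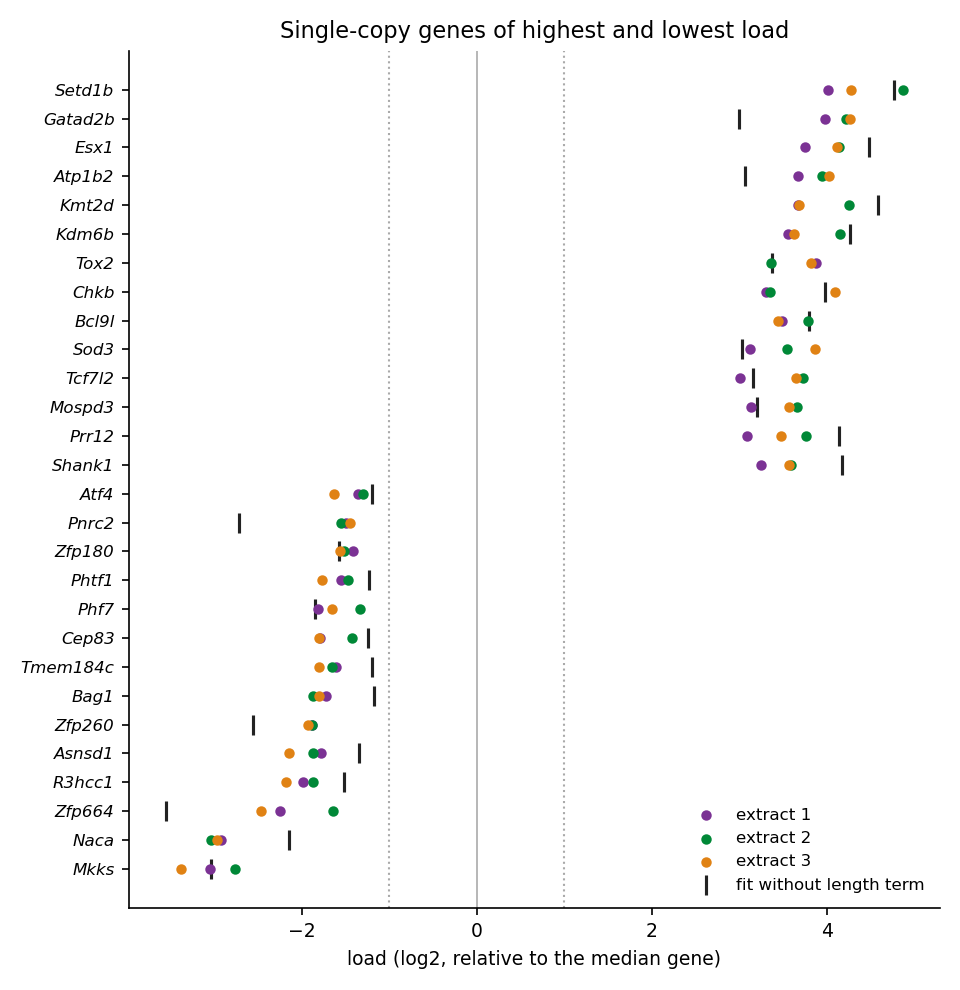
Load (log2, relative to the median gene) of 28 single-copy genes called with and without lengths, the 14 highest and 14 lowest among those with a mean of at least 10 CPM over both assays and at least 1 CPM in each, with a point for each extract and a bar for the fit without lengths. All 3 points of every gene lie beyond the dotted lines at 1 and -1, on the same side, and for some, such as *Pnrc2* and *Zfp664*, the fit without lengths lies lower still.

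Many of the highly loaded genes had coding sequences with an abundance of proline codons (CCN, where N is any base). The median share of CCN codons was 8.76% in the 375 genes and 5.65% in all 11808. Among the decile of genes richest in them, with at least 9.66%, 162 of 1181 belonged to the 375 (13.7%), whereas the other deciles gave 1.36 to 3.81%. Of the 375, 43.2% fell in that richest decile. Among the 28 highest with at least 1 CPM of RNA, 19 did, with a median of 12.8% and up to 21.5% in *Mbd6*, a methyl-binding domain protein. Proline-rich stretches of genes with high load are shown as examples, beside those of genes with low load. Each is the 30-base stretch of the RefSeq coding sequence with the most CCN codons in 10 that lies within a single exon, and CCN codons are in capitals (GRCm38):
Kdm6b, chr11:69406844-69406873, minus strand: CCTCCACCACCCCCACCCCCACCGCCTCCA
Prr12, chr7:45047364-45047393, minus strand: CCGCCGCCGCCGCCGCCACCACCGCCACCA
Setd1b, chr5:123152006-123152035, plus strand: CCTCCAttaCCCCCGCCCCCTCCTCCACCC
Bcl9l, chr9:44505653-44505682, plus strand: cagCCACCTCCTttgCCACCGCCACCCCCA
Kmt2d, chr15:98840307-98840336, minus strand: CCACCTCCTgaggaaCCTtccCCACCTCCG
Atf4, chr15:80257170-80257199, plus strand: tctCCTcggCCCaaaCCTtatgacCCACCT
Asnsd1, chr1:53347720-53347749, minus strand: CCTgtcgttCCCttaaataagaagctgCCT
Mkks, chr2:136874398-136874427, minus strand: catCCTtttgcaCCAcaaacctgccttCCA

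All 10 codons of the stretches in *Kdm6b* and *Prr12* read CCN, 9 in *Setd1b*, 8 in *Bcl9l* and 7 in *Kmt2d*, against 5 in *Atf4* and 3 in *Asnsd1* and *Mkks*. The median of this count was 5 in the 375 genes, 3 in the 50 genes called lower by both measures and 4 in all 11808. It was 3 both in genes called higher and in genes called lower with lengths, and across all 11808 its rho was 0.00018 with load and 0.19 with load without lengths. A longer coding sequence offers more stretches, and the part of length in this count was not tested. Median coding length was 1776 bases in the 375 genes, 1446 in the 50 and 1536 in all 11808. Proline-rich coding sequence is also rich in GC, so genes were compared within bands of coding GC content. From 55 to 60% GC, the decile of genes with the most CCN codons had a median load of 0.42 (0.40 without lengths) and 49 of its 330 genes (14.8%) were called higher by both measures. The decile with the fewest had a median load of 0.03 (-0.02 without lengths) and 7 of 331 genes (2.11%). From 60 to 65% GC the corresponding medians were 0.52 and 0.12, with 37 of 131 (28.2%) and 2 of 132 (1.52%) genes. Across all 11808 genes the correlation was weak, with a rho of 0.09 between load and the share of CCN codons, since the median load was near 0 in the first 9 deciles and 0.33 in the last. In *Mael*-/- testes, whose libraries are separate, the median load of the same last decile was 0.36. With lengths alone, 241 of its genes were called higher there, against 71 to 124 in the other deciles. In *Mael*+/- testes the share called higher with lengths alone was 19.6% in the last decile, 10.1% in the first and at least 6.10% in the rest.

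At the other end, genes of low load often had start codons upstream of the main one. Of the 50 genes called lower by both measures, 39 (78.0%) had at least 1 ATG in the leader of their RefSeq transcript and 28 (56.0%) had at least 3. Over the 11753 single-copy genes with an annotated leader these shares were 49.9 and 18.1%, and over the 372 of the 375 highly loaded genes that have one 49.5 and 18.3%. The share called lower by both measures was 0.187% of 5892 genes with no upstream ATG, 0.198% with 1, 0.496% with 2, 1.07% with 3 or 4 and 1.64% with 5 or more. The median load hardly differed, at 0.07 with none and 0.04 with 5 or more (0.15 and -0.16 without lengths). Across all 11808 genes the rho between load and the upstream ATG count was -0.04 (-0.15 without lengths). Median coding GC was 49.1% in the 50 genes against 53.6% in all 11808, and its part was not tested. Long leaders hold more ATG triplets. Within leaders of 300 to 600 bases, 0 of 397 genes with no upstream ATG were called lower by both measures, against 17 of 1018 (1.67%) with 3 or more. Within 150 to 300 bases the counts were 3 of 1471 and 1 of 461. In *Mael*-/- testes, 30 of 886 genes with 5 or more (3.39%) were called lower with lengths, compared with 44 of 5771 (0.762%) with none, and in *Mael*+/- testes with lengths the shares were 2.95 and 0.662%.

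**Figure D3:**
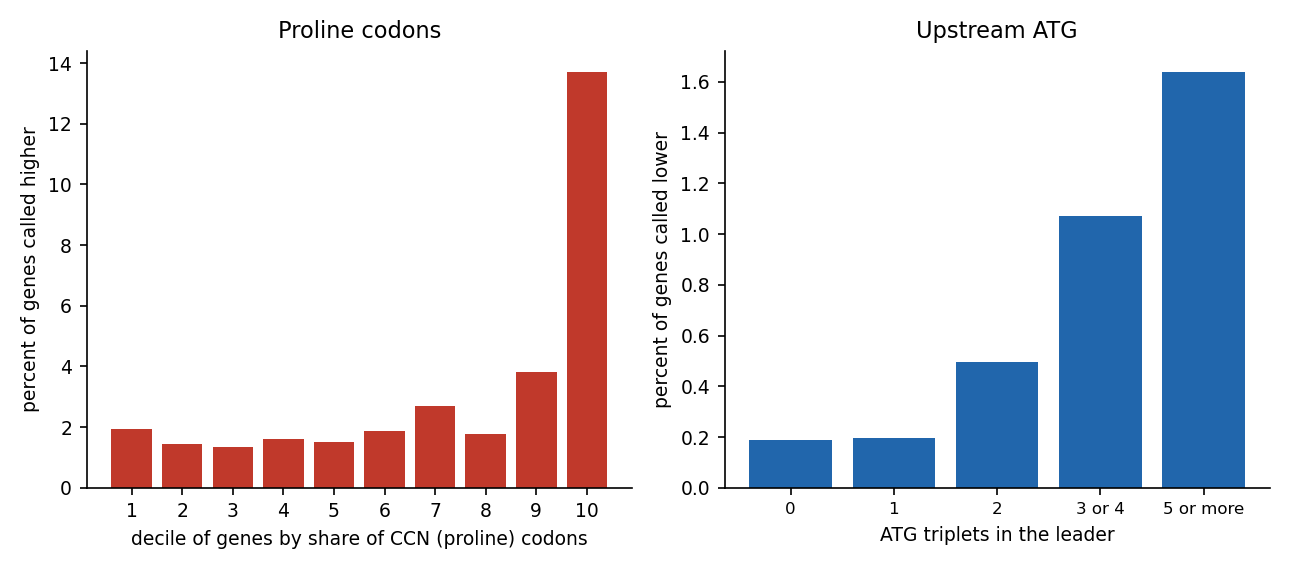
Left, percent of single-copy genes called higher with and without lengths in each decile of genes ordered by the share of CCN codons in their coding sequence. Right, percent called lower with and without lengths by the number of ATG triplets in the leader. The last decile on the left stands at 13.7% against at most 3.81% elsewhere, and the bars on the right climb from 0.187% with none to 1.64% with 5 or more.

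The lowest of the single-copy genes with a mean of 10 CPM over both assays and at least 1 CPM of footprints was *Mkks*, a chaperonin-like protein of the centrosome. It had 35.8, 35.7 and 42.2 CPM in RNA and 4.44, 5.39 and 4.16 CPM in footprints, so that footprints were far below RNA in every extract. Its load was -3.09 (SE 0.15, edgeR adjusted p 1.52e-16), or 8.54-fold lower, and 8.21-fold lower without lengths. Its leader of 996 bases holds 18 ATG triplets. *Asnsd1*, related to asparagine synthetases, had 111, 94.9 and 102 CPM in RNA and 48.3, 38.8 and 34.6 CPM in footprints, a load of -1.93 (SE 0.08), with 3 ATG triplets in its leader. *Atf4*, the transcription factor of the integrated stress response, had 135, 153 and 147 CPM in RNA and 61.8, 73.2 and 55.9 CPM in footprints, a load of -1.43 (SE 0.08, edgeR adjusted p 5.00e-06), also with 3. *Zfp664*, a zinc finger gene with 11 upstream ATG triplets, had 96.0, 80.2 and 90.4 CPM in RNA against 7.47, 9.57 and 6.09 CPM in footprints, a load of -2.13 (SE 0.13) and 11.7-fold lower without lengths. Upstream and main starts of 4 of these genes are shown with 6 bases on either side, ATG in capitals, with the position of the A in the RefSeq transcript (GRCm38):
Mkks, upstream start at 68, chr2:136891331-136891345, minus strand: gctgtgATGtgatgt
Mkks, main start at 997, chr2:136881227-136881241, minus strand: agcaggATGtctcgg
Asnsd1, upstream start at 134, chr1:53352611-53352625, minus strand: taggcgATGcccagc
Asnsd1, main start at 446, chr1:53348458-53348472, minus strand: ataaccATGtgtggc
Atf4, upstream start at 399, chr15:80255576-80255590, plus strand: gccaccATGgcgtat
Atf4, main start at 595, chr15:80256293-80256307, plus strand: cacaacATGaccgag
Pnrc2, upstream start at 212, chr4:135873053-135873067, minus strand: gactcgATGtggacc
Pnrc2, main start at 397, chr4:135872428-135872442, minus strand: ctgaagATGggtggc

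The upstream frame of *Mkks* shown ends after 1 codon, that of *Atf4* after 3, that of *Pnrc2* after 56 and that of *Asnsd1* after 99, all before the main start. Each is only 1 of the upstream frames of its gene, and whether the frame shown lowers initiation was not tested. *Pnrc2*, a coactivator of nuclear receptors, had 84.6, 71.1 and 79.4 CPM in RNA against 12.9, 10.4 and 12.5 CPM in footprints, a load of -1.498 (SE 0.10). *Phf7*, a chromatin protein of male germ cells, had a load of -1.63 (SE 0.09) with 178 CPM in the RNA of extract 1 against 71.0 and 66.9 CPM in the others. The zinc finger genes *Zfp260* (-1.91, SE 0.13) and *Zfp180* (-1.501, SE 0.11), with 7 and 5 upstream ATG triplets, and the centrosomal protein gene *Cep83* (-1.68, SE 0.08), with 3, were also low. Some low genes lacked the feature, such as *R3hcc1* (-2.02, SE 0.11), with none in a leader of 7 bases. The choice of transcript mattered for a few. With the shortest annotated coding transcript the load was -2.24 for *Mkks*, -1.15 for *Asnsd1*, -1.10 for *Bag1*, a cochaperone, and -2.17 for *Naca*, part of the nascent polypeptide complex, against -1.80 and -2.97 for *Bag1* and *Naca* at first.

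The 14 mRNAs listed for regulation by upstream reading frames, of which 13 were tested, had a median load of -0.86, and 3 were called lower and 0 higher. In the 11 with at least 90% unique windows it was -0.69 (-0.48 without lengths), against 0.05 over all 12340 such genes, of which 8.46% were called higher and 1.06% lower. Beside *Atf4*, the called members were *Ppp1r15a*, which restarts translation after stress (-1.52, SE 0.09, not called without lengths at -0.81), and *Slc35a4* (-1.54, SE 0.11, 18 upstream ATG triplets), with 80.5 and 40.2% unique windows. The zinc finger genes named Zfp formed a larger group of low load. Of 240 with unique windows, 22 were called lower (9.17%) and 12 higher (5.00%), and their median was -0.41 with lengths and without. The 22 had a median of 5 upstream ATG triplets, against 1 in the 206 not called, a median leader of 387.5 bases against 217, and a coding GC content of 45.7% against 50.5%.

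**Figure D4:**
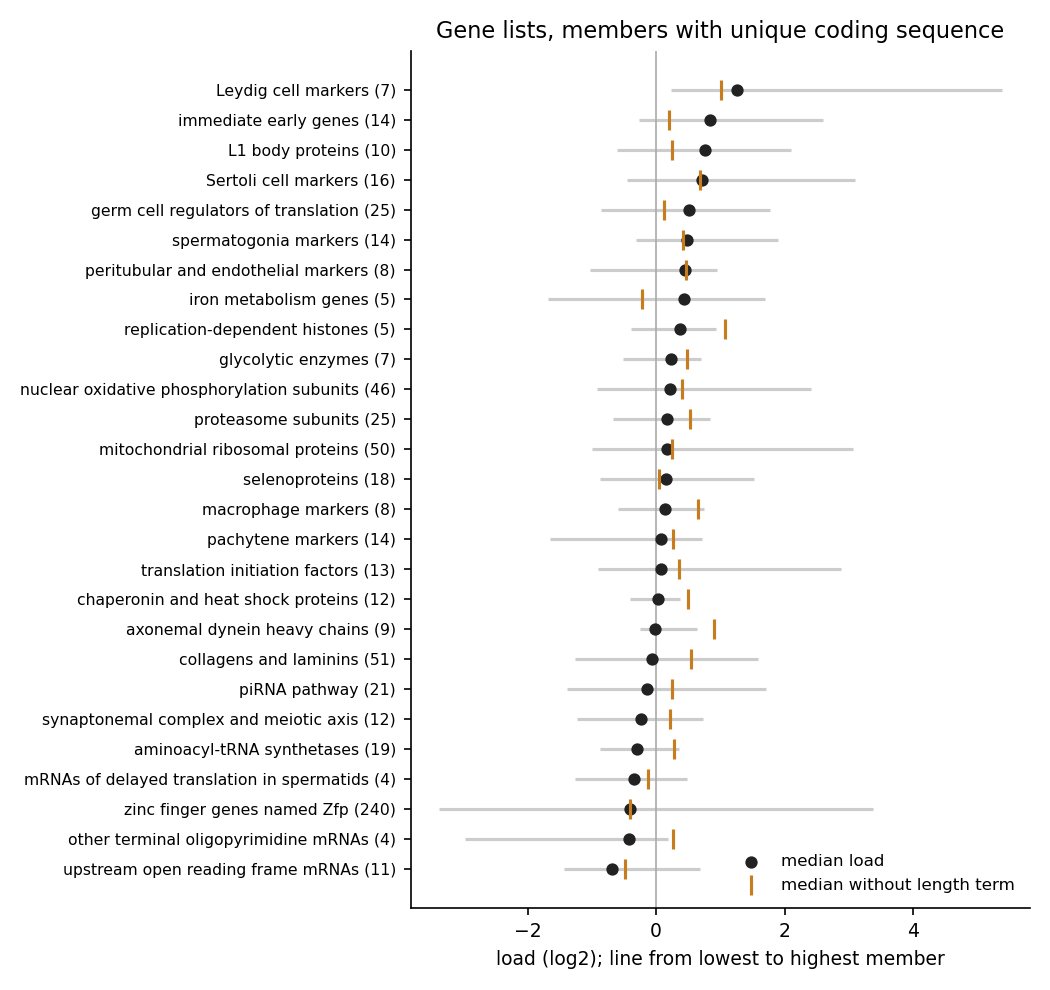
Median load (log2, relative to the median gene) of the 27 gene lists with at least 4 members, over members with at least 90% unique coding windows, whose number is in brackets, with a line from the lowest to the highest member and a bar for the median without lengths. Among these lists Leydig cell markers lie highest and mRNAs with upstream reading frames lowest, and for several lists in the middle and in the lower part, such as aminoacyl-tRNA synthetases, the bar lies on the other side of 0.

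Markers of the somatic cells of the testis had median loads above 0 by both measures, and so did those of spermatogonia and pachytene spermatocytes. Lists are described by counts and medians, and none was tested as a list. Over all 12340 genes with unique windows 8.46% were called higher and 1.06% lower, and without lengths 5.03% and 3.45%. In short lists 0 or a few calls lie near these shares. The 9 Leydig cell markers had a median of 0.59. Of the 7 with unique windows 4 were called higher, with a median of 1.26, and without lengths 2, with a median of 1.01. The 4 were *Insl3*, which shares exon bases with *Jak3* as given above, *Cyp11a1*, *Star* and *Lhcgr*, the last of which lost its call without lengths (0.58), without the block, in DESeq2 and without extract 3 (1.23). *Cyp11a1*, the first enzyme of steroid synthesis, had 48.5, 58.9 and 90.6 CPM in RNA and 156, 142 and 244 CPM in footprints, a load of 1.495 (SE 0.08) and 2.76-fold without lengths. *Star*, which brings cholesterol to that enzyme, had a load of 1.26 (SE 0.08) with lengths and -0.02 without, and its call was also lost without the block, in DESeq2 and without extract 1 (1.19). The 16 Sertoli cell markers had a median of 0.71 (0.68 without lengths), with 3 called higher, and 2 higher and 1 lower without lengths. *Sox9*, the transcription factor that specifies these cells, had 66.1, 48.1 and 50.1 CPM in RNA and 284, 354 and 356 CPM in footprints, a load of 3.09 (SE 0.10). *Ctsl* (1.64, SE 0.08) and *Cldn11* (1.21, SE 0.08), a protease and a tight junction protein, were called with lengths only, and *Cldn11* lost its call in DESeq2 and without extract 2 (1.12) or 3. The median was 0.48 (0.42 without lengths) in 14 spermatogonia markers, with *Id4*, *Ccnd2* and *Zbtb16* called higher with lengths only (1 member was lower without). In 14 pachytene markers it was 0.07 (0.26 without lengths), with 0 called in either direction with lengths and 1 lower without.

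Genes of the meiotic chromosome and of piRNAs had medians below 0 with lengths and above 0 without. The 12 genes of the synaptonemal complex and axis with unique windows had a median of -0.24 (0.21 without lengths). *Syce1*, of its central element, was called lower (-1.23, SE 0.08), a call lost without lengths (-0.83), without the block, in DESeq2 and without extract 2 (-1.16). *Sycp1*, of its transverse filaments and with 82.1% unique windows, had a load of -0.62 (SE 0.08), and 0.13 without lengths. The 21 genes of the piRNA pathway had a median of -0.14 (0.25 without lengths). *Tdrkh*, a partner of PIWI proteins on mitochondria, was called higher, with 46.1, 30.6 and 29.9 CPM in RNA, 117, 78.0 and 79.5 CPM in footprints and a load of 1.71 (SE 0.08). *Mael* itself was called lower. It had 211, 152 and 139 CPM in RNA and 140, 89.0 and 87.6 CPM in footprints, a load of -1.39 (SE 0.07, edgeR adjusted p 1.07e-05), but -0.67 (adjusted p 1) without lengths, and the call was also lost without the block. Whether the targeted allele contributes RNA in these testes was not tested. *Prkra*, an activator of the kinase PKR, had a load of 0.14 (SE 0.07).

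Regulators of translation in germ cells had a median of 0.51 over 25 genes with unique windows (0.13 without lengths), with 6 called higher and 0 lower with lengths, and 1 higher and 2 lower without. *Dazl*, an RNA-binding protein needed by germ cells, had 893, 504 and 568 CPM in RNA and 1303, 905 and 934 CPM in footprints, a load of 1.47 (SE 0.08), and 1.63-fold without lengths, which was not called. *Cpeb2*, which binds 3' untranslated regions, had 1.78 (SE 0.10) and was called by both measures. The 16 genes listed as L1 body proteins had a median of 0.24, with 5 called higher and 1, *Ybx1* (34.9% unique windows), lower. Among the 5 is *Cnot4* (1.34), whose protein the paper did not detect with the L1 protein ORF1p. The call of *Cnot4* was lost without lengths (0.62), without the block and in DESeq2. Of the 10 listed genes with unique windows (median 0.76) 4 were called higher with lengths and 0 without. *Elavl1*, which stabilizes mRNAs, was among the 4 (2.10, SE 0.08). Of 18 mRNAs known to be stored in spermatids, 4 passed the filter at this age and none of them was called.

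Other lists are given with their medians and calls, beside 8.46% of all 12340 genes with unique windows called higher and 1.06% lower (5.03% and 3.45% without lengths). Mitochondrial ribosomal proteins (50 genes with unique windows) had a median of 0.17, with 9 called higher with lengths, such as *Mrpl17* (3.06, SE 0.08), and 0 without. Subunits of oxidative phosphorylation (46 genes) had 0.22, with 8 called higher with lengths and 5 without. *Ndufa1*, of complex I (1.78, SE 0.08), was called by both measures. Proteasome subunits (25 genes, 0.18), chaperonins and heat shock proteins (12 genes, 0.03) and aminoacyl-tRNA synthetases (19 genes, -0.30) had none called in either direction. Medians without lengths were 0.53, 0.50 and 0.29. Collagens and laminins (51 genes) had -0.06, with *Col1a1*, the main chain of type I collagen, the only one called with lengths (1.59, SE 0.07, 4.30-fold without). Without lengths the median was 0.54 and 4 were called higher. Immediate early genes (14 genes) had 0.84 (0.20 without lengths), with *Egr1* (2.601, SE 0.12) and *Zfp36* (1.32, SE 0.11) called, of which *Zfp36* lost its call without the block, in DESeq2 and without extract 3 (1.23). *Epas1*, a hypoxia factor whose leader holds an iron-responsive element, was called higher (1.69, SE 0.07), and *Alas2*, an enzyme of heme synthesis in erythroid cells with the same element, was called lower (-1.69, SE 0.18), a call lost without lengths (-0.90), without the block and in DESeq2. Among 13 initiation factors with unique windows (median 0.07), *Eif1ax*, which scans for the start codon (2.88, SE 0.07), and *Eif5b*, which joins the subunits (1.22, SE 0.07), were called higher with lengths, and 0 without. *Eif5b* shares 15.9% of its exon bases with *Rev1* and lost its call in DESeq2 and without extract 3 (1.17) too. The selenoproteins (18 genes, 0.15) had *Ept1*, an enzyme of phospholipid synthesis (1.52, SE 0.08), called with lengths only. Replication-dependent histones had 21.1% unique windows in the median, and 8 of 58 were called lower and 3 higher, but 0 of the 5 with unique windows. Markers of macrophages (8 genes, 0.13) and of peritubular and endothelial cells (8 genes, 0.44) had 0 called with or without lengths.

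The loads recurred in *Mael*-/- testes. Of the 1154 genes called higher in *Mael*+/- and tested in both genotypes, 1080 were called higher in *Mael*-/- too (93.6% of the heterozygous list and 88.3% of the *Mael*-/- list, in which 8.77% of 13977 genes were called higher), and 0 were called lower. Of 580 called lower, 528 were called lower in both (91.0 and 85.2%, with 4.46% of genes called lower in *Mael*-/-). Among single-copy genes the shares were 93.9 and 87.7% for higher and 78.3 and 70.1% for lower loads. *Kmt2d* had 3.86 and 3.89 in *Mael*+/- and *Mael*-/- testes, *Mkks* -3.09 and -2.83, and *Atf4* -1.43 and -1.46. In the test of the difference itself, 0 of 14312 genes passed in edgeR or in DESeq2, where 316 and 92 genes had p under 0.05 before adjustment. Both counts are smaller than this threshold gives when no gene differs, so the tests were conservative and the 0 does not show equal loads. Deviations of RNA and footprint libraries of the same number also correlated weakly in *Mael*-/- testes, with r of 0.236, 0.25 and 0.24. For 12547 genes (87.7%), a difference of 2-fold either way was outside the 95% confidence interval.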

How the data were processed

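Per the labels, RNA was read from stranded libraries depleted of ribosomal RNA and footprints from nuclease digests of the same *Mael*+/- extracts. According to the methods, the authors removed linkers and reads of ribosomal DNA (Bowtie 1.2.2), aligned to mm10 with STAR 2.6.0c and counted with featureCounts (Subread 1.6.4), taking RNA over the whole mRNA and footprints over the coding part only. The deposited values are raw counts per gene. Deposited tables of log2 fold changes and p-values from the authors' DESeq2 1.24.0 were not used. Treatment of multiply aligned and duplicate reads is not given in the sources used here.

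Quasi-likelihood fits of the 6 libraries (edgeR 4.0.16, R 4.3.3) had extract as a block, TMM factors, the default filter and, on footprint libraries, an offset of coding over exon length (unions over RefSeq transcripts of GRCm38.p6; 19228 genes matched by current and 1183 by older symbol). Loads were centred on the median gene, a shift of 0.955. Calls used glmTreat against 2-fold at an adjusted p of 0.05, with a prior count of 0.5. SE are those of the fit. RNA and footprint libraries of the same number were treated as pairs because they came from the same extract, and their deviations from the group correlated with r of 0.789, 0.643 and 0.667. Biological coefficients of variation were 6.35% with the block and 17.1% without. In simulated counts for this comparison (13915 genes), 90% of 100 loads of 2 and 100% of 96 loads of 3 on the log2 scale were recovered, with 0 false calls. All other genes were simulated at a load of 0, far from the 2-fold threshold. The 0 false calls were therefore all but fixed in advance and give no error rate for genes near the threshold. Median-of-ratios factors, DESeq2 1.42.0, other lengths, filters and thresholds, thinning and leaving out extracts were tried. Alternatives resting on unique windows for lengths and on shared exons were added after seeing the data.

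Members and lists were chosen with earlier results of these data known. The text names the 12 highest and 12 lowest called genes with a mean of 10 CPM over both assays, 90% unique windows and all 3 extracts past 2-fold on the same side, called members of lists (or the 4 highest and 4 lowest where more than 8 were called), and *Mael*, *Sycp1*, *Prkra*, *Clu*, *Actb* and *Gapdh*. Further genes, chosen after their values were seen, are the 30 highest and 25 lowest called with and without lengths and genes with counts in 1 assay. Not every gene these rules allow is named, and some are not reported here. Promoters were not examined and no protein sequences were used.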

Additional observations from a re-analysis of the deposited data

How the results depend on the processing

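Counts of genes of higher and lower load, 1166 and 593 at first, moved by over 1.5 times under some settings. Without lengths they were 685 and 965. On the TMM scale without centring they were 5289 and 235, a change by the shift of 0.955 itself. Thresholds of 1.5-fold gave 2345 and 1616 and of 4-fold 215 and 189. The count of lower genes alone was 347 with a mean of 50 counts in each assay, 157 with unique coding windows only, 255 with lengths of unique windows and 151 with unique windows and at most 10% of exon bases shared, settings that remove or rescale genes with repeated sequence or few counts. Leaving out a replicate gave 1012 to 1166 higher and 482 to 590 lower genes. No replicate block gave 828 and 427, DESeq2 870 and 396, and an adjusted p under 0.01 gave 1040 and 492. Without the block no count moved by over 1.5 times. Of the genes named in the text *Alas2*, *Celf1*, *Cldn11*, *Cnot4*, *Cpeb2*, *Cyp11a1*, *Dazl*, *Eif5b*, *Lhcgr*, *Mael*, *Phf7*, *Star*, *Syce1* and *Zfp36* lost their calls in that setting. Pearson's r of footprints and RNA stayed between 0.882 and 0.943. The difference between genotypes gave 0 genes under each setting run.

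Of 972 recomputed loads of named genes, 836 kept their direction and side of the threshold, 121 lost the call, 2 gained it and 13 changed sign, 12 of them without lengths: *Rps15a* to -2.34, *Ept1* to -0.035, *Selt* to -0.013, *Mrps25* to -0.11, *Celf1* to -0.18, *Paip2* to -0.35, *Cnot6l* to -0.055, *Ccnd2* to -0.0089, *Id4* to -0.17, *Star* to -0.021, *Sycp1* to 0.13 and *Actb* to 0.13. *Actb* also went to 0.034 without replicate 1. Annotated ends that differ from those used in testis limit loads with lengths, and footprint depth limits genes with few counts. Intervals and floors cover counting error and the spread between extracts only.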
